A study of Homo sapiens with 4 samples.

Results

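The clustered protocadherin genes on chromosome 5 were followed in H3K9la ChIP-seq peak lists of KYSE30, an established line from an oesophageal squamous cell carcinoma. H3K9la is histone H3 carrying a lactyl group on lysine 9. The members were all protein-coding genes of chromosome 5 in the RefSeq gene table of GRCh38.p14 whose symbols begin with PCDHA, PCDHB, PCDHGA, PCDHGB or PCDHGC. This gave 53 members of 19974 protein-coding genes, with 15 in the PCDHA block, 16 in the PCDHB block and 22 in the PCDHG block. Records of the peak lists were read in a 900-kb window (hg38) that reached from 86.1 kb before the PCDHA block to 87.0 kb after the PCDHG block, and each record was counted 1 time, since the long genes overlap.

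The 4 labelled samples are a ChIP library made with an antibody to H3K9la and an input, for the arm sg3 and again for the arm V2. No treatment or time was given for either arm, both share the cell line and the culture medium, and the sources used here do not explain the names sg3 and V2. One peak list per arm was deposited by the authors. GEO attaches the sg3 list to the ChIP sample of that arm, but the V2 list to the input sample, so the library behind the V2 list rests on its name. With 1 list per arm there was no replicate, every difference compares 2 lists with no replicate check, and no test was made. The sg3 list held 56875 records and the V2 list 40332. Read depth is unknown, and the copy number of chromosome 5 in these cells was not measured.

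Clustered protocadherins are cadherin-like adhesion proteins of the cell surface, best known for giving neurons single-cell identity. Each PCDHA and PCDHG gene has its own promoter and large first exon, which is spliced to constant exons at the 3′ end of its block, while PCDHB genes have no constant exons. The C-type genes PCDHAC1, PCDHAC2, PCDHGC3, PCDHGC4 and PCDHGC5 lie last in their blocks and are expressed more uniformly in neurons than the other members. CTCF and cohesin loop chosen promoters to distal enhancers, and most of these promoters carry a conserved element with the core letters CGCT.

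The core letters CGCT are shown here because most member promoters held them shortly before the start. Only these letters were searched, so a match does not show the conserved element. Which members carry the whole element was not tested. RefSeq promoters (GRCh38.p14, from 250 bases before to 50 bases after a start) matched 47 members by gene ID, all on the + strand. The 6 members without an entry were PCDHA3, PCDHA13, PCDHB6, PCDHB11, PCDHGA12 and PCDHGC5, for which the lower coordinate of the gene was taken as the start. CGCT on the printed strand began between 120 and 20 bases before the start in 43 of the 47 promoters (91.5%), against 34.6% of 15812 protein-coding promoters. On the opposite strand it lay in that interval in 9 member promoters (19.1%), against 36.1% of all. Over the whole 300 bases and both strands, CGCT was present in 46 of 47 members and in 81.0% of all promoters. The 40-base stretches below are printed 5′ to 3′ with CGCT in capitals, to show how the letters around it differ between blocks.
PCDHA1: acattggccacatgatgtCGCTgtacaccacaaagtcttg
PCDHA4: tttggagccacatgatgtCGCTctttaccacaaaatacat
PCDHA12: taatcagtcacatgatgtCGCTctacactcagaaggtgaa
PCDHAC1: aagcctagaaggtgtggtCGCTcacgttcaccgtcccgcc
PCDHB2: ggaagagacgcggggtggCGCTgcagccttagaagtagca
PCDHB10: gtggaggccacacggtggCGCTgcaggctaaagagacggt
PCDHB15: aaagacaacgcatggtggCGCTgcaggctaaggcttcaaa
PCDHGA2: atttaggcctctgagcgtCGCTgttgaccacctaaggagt
PCDHGA8: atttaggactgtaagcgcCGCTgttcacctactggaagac
PCDHGB7: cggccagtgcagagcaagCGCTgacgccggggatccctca
In these stretches CGCT began 38, 73, 48 and 63 bases before the starts of PCDHA1, PCDHA4, PCDHA12 and PCDHAC1, 55, 38 and 65 bases before those of PCDHB2, PCDHB10 and PCDHB15, and 41, 49 and 54 bases before those of PCDHGA2, PCDHGA8 and PCDHGB7. The longer letters TCGCT, which contain CGCT, lay in the same interval of 12 of 13 PCDHA promoters, 2 of 14 PCDHB promoters and 5 of 20 PCDHG promoters, and of 6.70% of all promoters (printed strand).

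Almost none of the protocadherin starts carried an H3K9la record. Within 1 kb of a start, 1 of the 53 members had a record in the sg3 list (1.89%, exact 95% interval 0.0478 to 10.1%), where 48.9% of all 15818 protein-coding genes with a known start did. In the V2 list 0 of the 53 members had one, where 29.6% of all genes did. At 0 of 53, a share as high as 5.66% is still allowed (3 counts of 53), and the exact interval reaches 6.72%. These intervals cover counting error only, and neighbouring members share their chromatin and are not independent. The marked member was in the sg3 list alone, a class that held 19.8% of all genes, and no member was in V2 alone, a class that held 0.443%. A window from 1 kb before to 3 kb after the start, chosen after the data were seen to take in the large first exons, gave the same counts of 1 in sg3 and 0 in V2.

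The marked start belonged to PCDHGC3, the first C-type gene of the PCDHG block. Its sg3 record ran from 141475911 to 141476455 on chromosome 5, across the start at 141475966, with an enrichment of 6.14-fold and a -log10 q of 16.5. Fold enrichment is the authors' ratio of ChIP signal to background at the summit, and both values rank records within their own list. The record stood at rank 22595 of 56875 by -log10 q, and its fold enrichment lay above the sg3 median of 4.97. The nearest V2 record was 44.7 kb from this start. The record lay in the gene bodies of 20 PCDHG members, whose 3′ end is shared, but over the start of PCDHGC3. PCDHGC4 and PCDHGC5, the next starts, were 8575 bases and 12.6 kb from it, and had no record within 1 kb in either list.

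The promoters of 3 C-type genes are printed to set the marked start beside unmarked ones of similar composition. PCDHGC3 lies at chr5:141475716-141476015, PCDHGC4 at chr5:141484780-141485079 and PCDHAC2 at chr5:140966226-140966525, all on the + strand of GRCh38.p14. Capitals mark CGCT on the printed strand.
PCDHGC3: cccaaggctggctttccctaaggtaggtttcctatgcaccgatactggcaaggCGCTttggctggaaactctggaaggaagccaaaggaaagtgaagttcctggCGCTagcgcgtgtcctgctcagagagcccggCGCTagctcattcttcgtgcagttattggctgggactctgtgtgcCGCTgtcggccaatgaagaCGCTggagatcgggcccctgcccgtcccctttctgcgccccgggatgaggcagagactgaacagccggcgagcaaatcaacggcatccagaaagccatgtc
PCDHGC4: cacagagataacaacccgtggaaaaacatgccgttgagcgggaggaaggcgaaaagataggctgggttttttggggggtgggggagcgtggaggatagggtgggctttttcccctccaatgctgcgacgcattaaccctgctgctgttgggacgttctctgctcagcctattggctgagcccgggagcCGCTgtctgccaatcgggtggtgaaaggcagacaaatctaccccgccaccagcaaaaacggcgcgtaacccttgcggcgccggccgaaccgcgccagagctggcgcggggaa
PCDHAC2: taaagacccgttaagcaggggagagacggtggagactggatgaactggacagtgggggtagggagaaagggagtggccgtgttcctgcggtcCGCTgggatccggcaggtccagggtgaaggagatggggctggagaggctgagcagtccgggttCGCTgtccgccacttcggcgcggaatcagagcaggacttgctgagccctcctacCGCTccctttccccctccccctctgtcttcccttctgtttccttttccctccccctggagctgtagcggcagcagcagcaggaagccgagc
The PCDHGC3 promoter held 5 CGCT matches, the PCDHGC4 promoter 1 and the PCDHAC2 promoter 3. A match is a description of letters and does not show a bound site.

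Records were absent over long runs of protocadherin starts. In the sg3 list no record lay between 141040859 and 141475910, a stretch of 435 kb with the starts of 35 members and of SLC25A2 and TAF7. It took in the whole PCDHB block and every PCDHGA and PCDHGB start. Another stretch of 271 kb, from 140718672 to 140989805, held all 15 PCDHA starts. In the V2 list the matching stretches were 513 kb from 141007649 to 141520681, with 38 member starts, and 283 kb from 140718584 to 141001755, with 15. The median distance between neighbouring records was 1.235 kb over the 55124 gaps of the sg3 list and 1.613 kb over the 39235 gaps of the V2 list. By number of protein-coding starts held, the longest protocadherin gap shared rank 5 with another gap in the sg3 list, both with 37 starts, and ranked 6 in the V2 list, with 40. Gaps with more starts held, among others, olfactory receptor genes or defensin genes, so long record-free runs of family members were also found elsewhere.

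**Figure D1:**
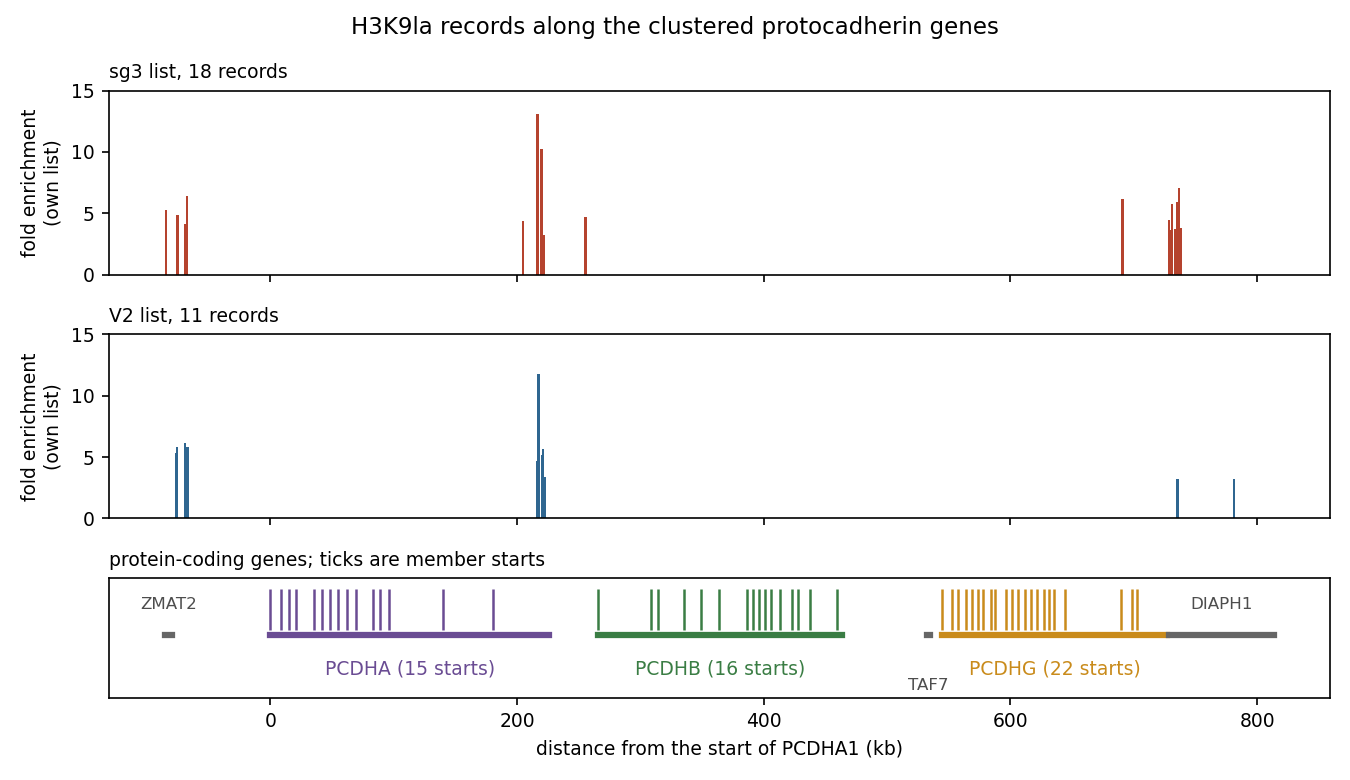
H3K9la records of the sg3 list (top) and the V2 list (middle) against distance from the start of PCDHA1 in kb, with bar height the fold enrichment within its own list, bars drawn at least 2 kb wide, and member starts as ticks (bottom). The 18 sg3 and 11 V2 records stand in a few groups, with 0 over the PCDHB block.

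Distance to the nearest record followed position along the chromosome. The median distance from a member's start was 105.7 kb in sg3 and 127.6 kb in V2, against medians of 1.735 kb and 30.7 kb over all protein-coding genes with a start. PCDHB15, the last PCDHB gene, was the farthest in both, at 204.5 kb in sg3 and 237.7 kb in V2. The PCDHA genes were nearly equal between the lists up to PCDHA9, at 129.7 kb in sg3 and 129.8 kb in V2, because records that overlap between the lists, before the block, were the nearest. Within 100 kb of a record were 24 of 53 members in sg3 and 14 in V2. Of all 15818 protein-coding genes with a start, 13115 were within that distance in sg3 and 11262 in V2.

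**Figure D2:**
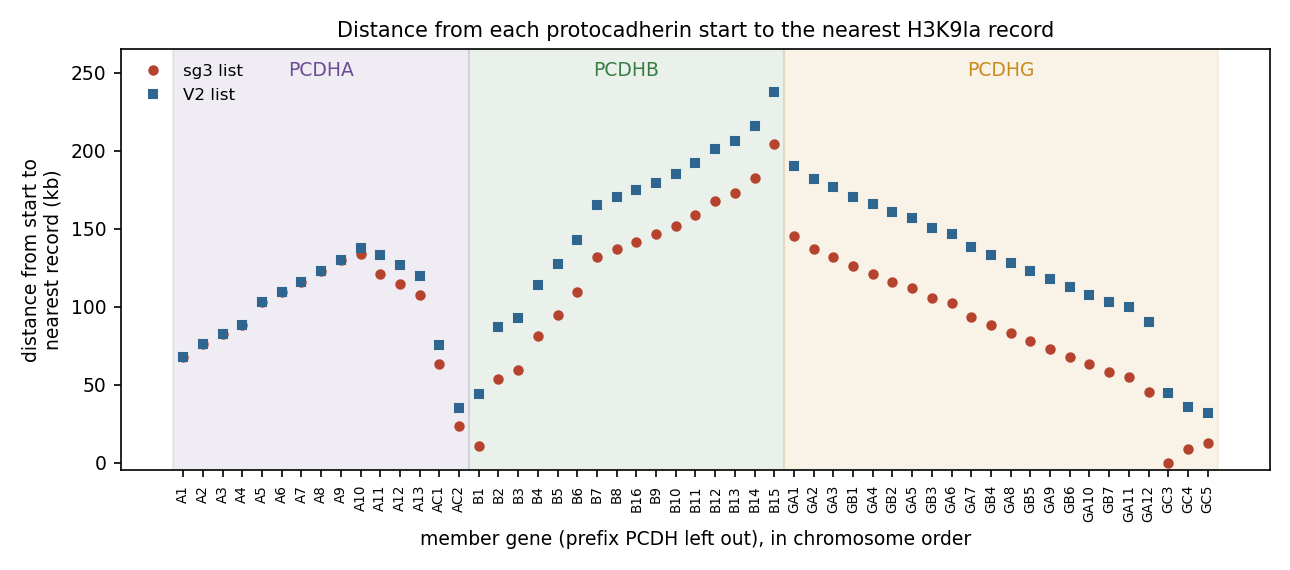
Distance in kb from each member's start to the nearest record of the sg3 list (circles) and the V2 list (squares), genes in chromosome order and shaded by block. PCDHGC3 is the single member at 0 in sg3, and PCDHB15 stands highest in both lists.

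By block, 5 sg3 records and 5 V2 records lay in PCDHA (226 kb), 0 and 0 in PCDHB (198 kb), and 1 and 0 in PCDHG (182 kb). The gap between PCDHA and PCDHB held 1 sg3 record and 0 V2 records, and the gap between PCDHB and PCDHG held none. That sg3 record ran from 141040500 to 141040858, 10.5 kb before the start of PCDHB1, with 4.68-fold enrichment and a -log10 q of 6.18. Before PCDHA there were 4 records in each list, and after PCDHG 7 in sg3 and 2 in V2. The whole window therefore held 18 sg3 and 11 V2 records covering 14.5 kb and 7.18 kb. Among 900-kb windows tiled along chromosomes 1 to 22 and X with at least 40 protein-coding genes, the median was 56 sg3 records (interquartile range 41.5 to 78, 20 windows) and 39.5 V2 records (27.75 to 53). Windows with at least 1 protein-coding gene had medians of 10 and 6.

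The strongest records of the window lay far from any protocadherin start, in the constant region at the 3′ end of PCDHA. RefSeq places this region (PCDHACT) from 140978949 to 141012344. The gene table gives no exons, so records were not placed in exons or introns. The sg3 list had 4 records between 141001333 and 141007634, which covered 5357 bases of that stretch, and the V2 list had 5 between 141001756 and 141007648, which covered 3570 bases. These made up 36.9% of the bases under sg3 records in the window and 49.7% of those under V2 records. The stretch began 34.9 kb after the start of PCDHAC2 in sg3 and 35.3 kb in V2, and ended 4713 bases and 4699 bases before the end of the block, so it lay in the bodies of all 15 PCDHA genes and cannot be assigned to 1 of them.

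In the dense stretch 3 pairs of records had summits within 54 bases of each other. The widest sg3 record, from 141001333 to 141004115 (2783 bases), had an enrichment of 13.1-fold with a -log10 q of 50.6. It spanned V2 records from 141001756 to 141002257 (fold enrichment 4.67) and from 141002416 to 141003882 (11.7, -log10 q 36.8), and its summit was 54 bases from that of the stronger one. The sg3 record from 141005029 to 141006734 (10.2, -log10 q 59.1) spanned V2 records from 141005326 to 141005911 (5.18) and from 141006120 to 141006701 (5.69), with summits 10 bases apart for the first. The last pair, at 141007126 to 141007634 in sg3 (3.22) and 141007216 to 141007648 in V2 (3.34), had summits 5 bases apart. By -log10 q the second of these sg3 records ranked 3348 of 56875, and the strongest V2 record ranked 4202 of 40332. A weak sg3 record between the wide ones, from 141004516 to 141004874 (4.36), and one before them, from 140989806 to 140990243 (4.34), had no V2 partner.

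**Figure D3:**
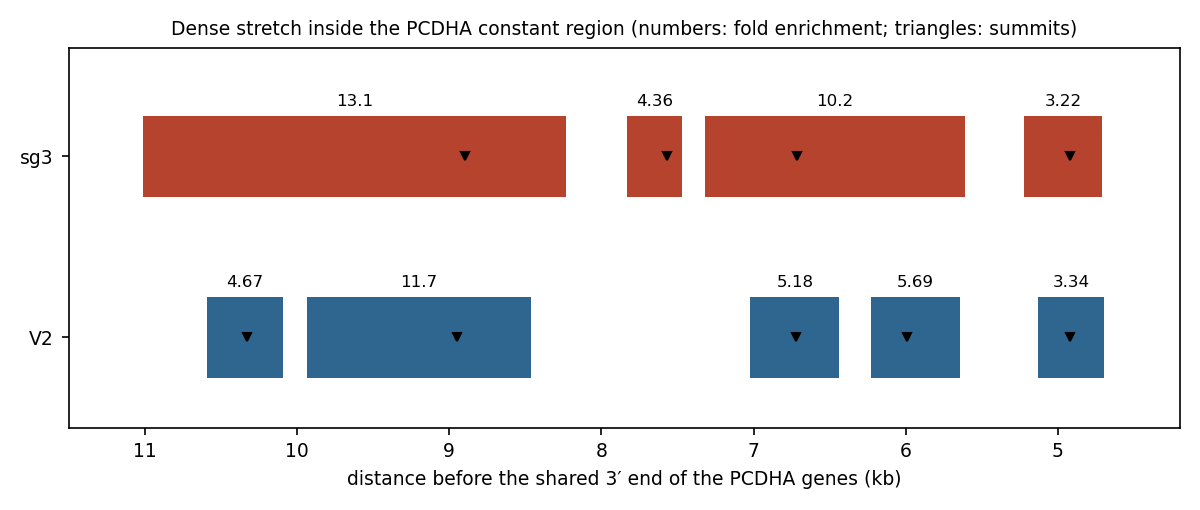
Records of the dense stretch in the sg3 list (upper row) and the V2 list (lower row) against distance in kb before the shared 3′ end of the PCDHA genes, with fold enrichment printed above each record and summits as triangles. The 4 sg3 records and 5 V2 records cover the same stretch, and each of the 2 wide sg3 records spans 2 V2 records.

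Beside the cluster, records lay near vault RNA genes and at the end of DIAPH1, where long noncoding RNA genes are also annotated. Vault RNAs are short noncoding RNAs made by RNA polymerase III. A record in both lists ended just before VTRNA1-1 (140711276 to 140711373), 167 bases away in sg3 (140709715 to 140711109, fold enrichment 4.88) and 348 bases in V2 (140709558 to 140710928, 5.83). Another ended before VTRNA1-2 (140718926 to 140719013), 255 bases away in sg3 (140717757 to 140718671, 6.40) and 343 bases in V2 (140717865 to 140718583, 5.81). The long noncoding RNA gene LOC105378198 (140711276 to 140758080) has the same lower coordinate as VTRNA1-1, and the records before VTRNA1-2 lay inside it. These records cannot be assigned to 1 of the genes. VTRNA1-3 had no record within 7 kb, with the nearest 7488 bases away in sg3 and 7576 bases in V2. The summits of the paired records were 25 and 46 bases apart. The other 2 records before PCDHA in each list had no partner, in sg3 at ZMAT2 and from 140716489 to 140716885 (4.12), and in V2 from 140708691 to 140709073 (5.29) and from 140715917 to 140716308 (6.17).

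After the PCDHG block, sg3 had a run of 7 records from 141513843 to 141523369, where V2 had 1, from 141520682 to 141521057 (fold enrichment 3.19). The run began 868 bases past the shared 3′ end of the PCDHG genes (141512975) and ran over the 3′ end of DIAPH1 (141515021), a formin that assembles actin filaments. Its sg3 fold enrichments ranged from 3.60 to 7.03. The strongest by -log10 q, from 141520232 to 141521200 (5.94, -log10 q 21.2), was the one with the V2 partner, and their summits were 31 bases apart. Some sg3 records of the run, this one among them, also overlapped the long noncoding RNA gene LOC124901091 (141517008 to 141520636). The V2 list had a further record inside DIAPH1, from 141566554 to 141566925 (3.19), with no sg3 partner. Over the window 6 of 18 sg3 records (33.3%, exact 95% interval 13.3 to 59.0%) and 8 of 11 V2 records (72.7%, 39.0 to 94.0%) overlapped the other list, against 52.4% and 86.3% of the whole lists.

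Starts of genes next to the cluster were marked more often than those inside it. The window had 4 other protein-coding genes. At either end 2 of them had a record in sg3 and 1 in V2, where 47.2% and 28.8% of all protein-coding genes did. ZMAT2, a zinc finger gene at the edge of the window, had a record within 1 kb of its start in sg3 alone (140700540 to 140701022, fold enrichment 5.23, -log10 q 11.2), a class of 18.9% of all genes. No gene of the window was in V2 alone, a class of 0.501%. DIAPH1 had a record within 1 kb of its start (141619000) in both lists, beyond the end of the window. In sg3 it ran over the start, from 141618401 to 141619029 (7.94, -log10 q 78.8). In V2 it ran from 141618452 to 141618967 (4.25, -log10 q 29.2) and did not reach the start. SLC25A2, a mitochondrial ornithine carrier gene, and TAF7, a gene for a subunit of the general factor TFIID, lie between PCDHB and PCDHG and had none. Of the nearest 10 protein-coding genes before PCDHA, 6 had a record within 1 kb of a start in sg3 and 2 in V2, and of the nearest 10 after PCDHG, 7 in sg3 and 4 in V2. Neighbours such as HDAC3 and RELL2 share a record.

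Among other gene families in clusters, HOX, keratin and ZNF genes had shares between those of the protocadherins and of all genes. Among genes with a known start, 3 of 20 HOX genes had a record there in sg3 and 1 in V2, 32.4% of 34 keratin genes in sg3 and 8.82% in V2, and 36.1% of 219 chromosome 19 ZNF genes in sg3 and 18.3% in V2. Olfactory receptor genes, a family added after the data were seen, had 0.955% of 314 in sg3 and 0.318% in V2. The interval of the protocadherins in sg3, 0.0478 to 10.1%, overlapped those of the HOX genes (3.21 to 37.9%) and the olfactory receptor genes (0.197 to 2.77%), and lay below those of the keratin (17.4 to 50.5%) and ZNF genes (29.7 to 42.8%). In these other families genes without a promoter entry were left out, while protocadherins without one were kept by their lower coordinate. These shares describe single lists and were not tested.

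**Figure D4:**
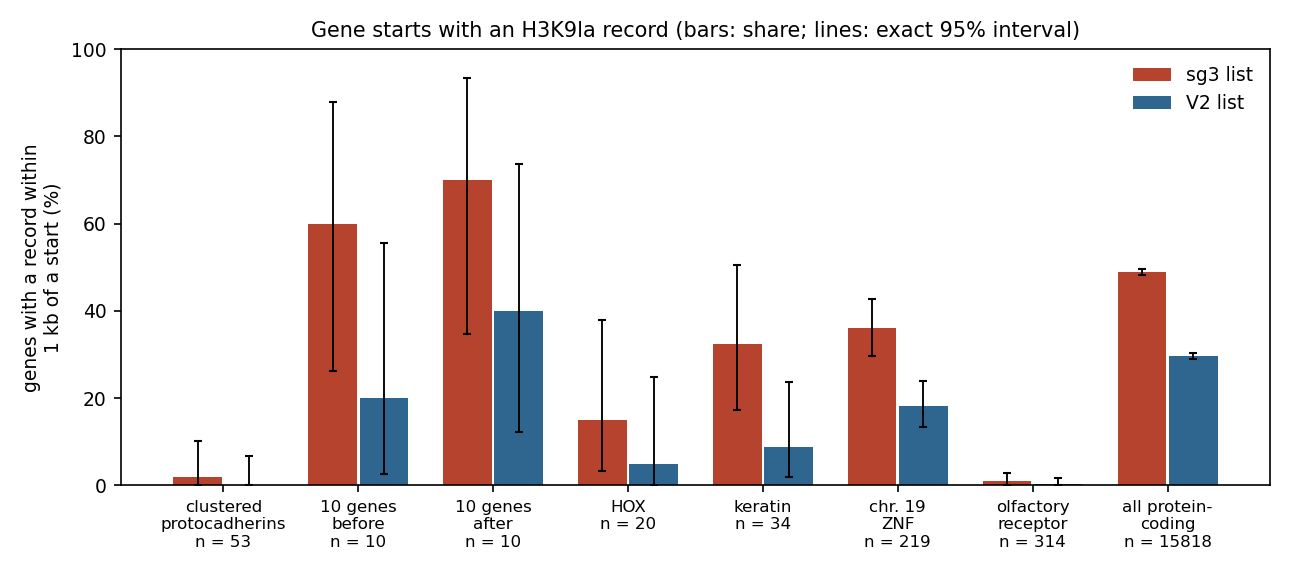
Share of genes in percent with a record within 1 kb of a start in the sg3 list (left bar of each pair) and the V2 list (right bar), for the 53 clustered protocadherins, their 10 nearest neighbours on each side, other families and all protein-coding genes, with exact 95% intervals of counting error. The protocadherin bars stand at 1.89% and 0%.

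Most protocadherin promoters were poor in CpG over the 300 bases read, a class that was marked less often in general than promoters with more CpG. The median was 7 CpG in 300 bases (range 2 to 27, 47 members), against 22 over all promoters (interquartile range 8 to 32), and the median GC content was 39.7% against 62.7%. Of the members, 33 had under 10 CpG, and of all 4293 genes in that class 18.9% had a record at a start in sg3 and 11.7% in V2. At 15 CpG or more there were 5 members, PCDHAC1 with 27, PCDHGC4 with 23, PCDHGC3 with 18, PCDHGB6 with 16 and PCDHAC2 with 15. Of these PCDHGC3 was marked, in sg3 alone, while 62.8% of all 10324 genes in that class had a record in sg3 and 37.9% in V2. In the class from 10 to 14 CpG, 0 of 9 members were marked, where 37.7% and 21.6% of all genes were. From 5 to 9 CpG 0 of 27 members were marked, where 27.8% and 17.3% of all genes were, and at 0 to 4 CpG 0 of 6, where 13.1% and 8.17% were. The part of CpG content in the members' count was not tested.

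**Figure D5:**
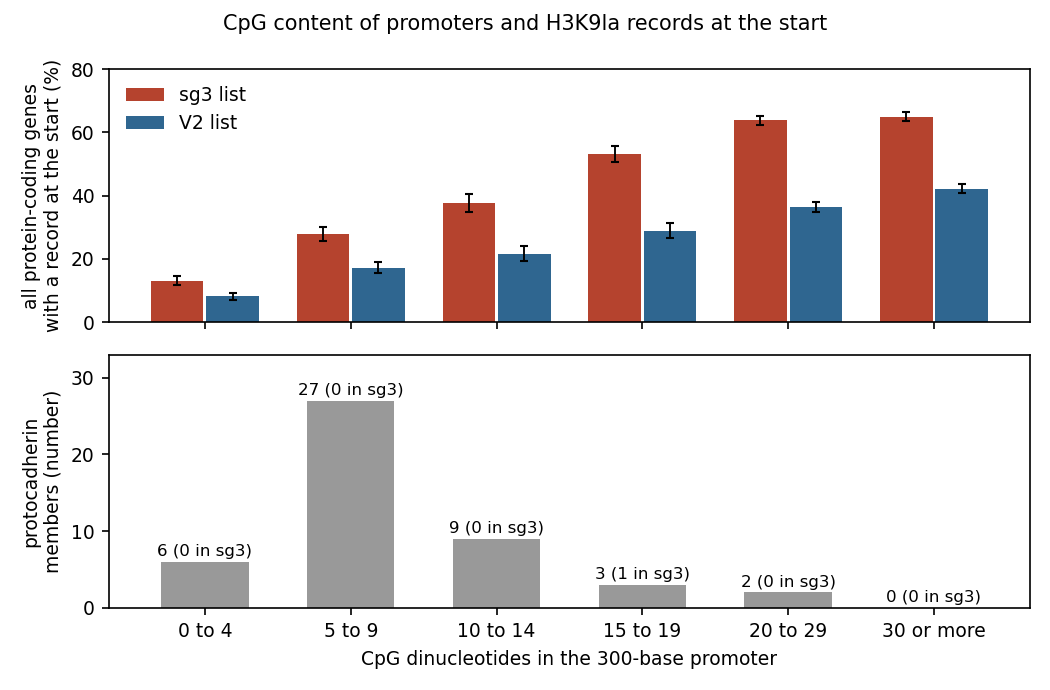
Top: share of all protein-coding genes in percent with a record within 1 kb of a start in the sg3 list (left bar) and the V2 list (right bar), by number of CpG in the 300-base promoter, with exact 95% intervals. Bottom: number of protocadherin members in each class, of which 1, with 15 to 19 CpG, was marked in sg3.

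Regulators of the cluster were widely marked and other large cadherins less so, beside shares of 47.2% in sg3 and 28.8% in V2 over all protein-coding genes. In a list of 20 non-clustered protocadherins, FAT, Dachsous and CELSR cadherins, 6 had a record at either end in sg3 and 3 in V2. CELSR2, a planar polarity cadherin (fold enrichment 5.41), PCDH1, an epithelial protocadherin (3.38), and PCDH7 (4.43) had one at an outer end in sg3 alone. PCDH1 also had a V2 record within 1 kb of its RefSeq start, which lies inside the gene's outer ends. The PCDH1 start was thus marked in both lists. CELSR2 was marked at its upper coordinate, and had no record within 1 kb of its RefSeq start in either list. CELSR3 had the highest -log10 q of those in both lists, with fold enrichments of 13.2 in sg3 and 8.63 in V2. Of 20 regulators, 15 were marked at either end in sg3 and 12 in V2. WIZ, not among them, had an sg3 record within 1 kb of a RefSeq start. HELLS, a chromatin remodeller needed for DNA methylation (5.56), DNMT1, the maintenance DNA methyltransferase (5.79), and REST, a repressor of neuronal genes (3.17), were in sg3 alone. CTCF had a record in both lists, with 4.98 in sg3 and 2.45 in V2, as did the cohesin gene SMC3 (4.31 and 3.81). TET3, a 5-methylcytosine oxidase gene, had the highest -log10 q of the regulators in sg3 (12.3 in sg3 and 5.96 in V2).

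Markers of the labelled cell type were marked more than those of neurons, the cells best known for clustered protocadherins. Of 12 squamous epithelium genes 11 had a record at either end in sg3 and 8 in V2, and of 12 neuron genes 5 in sg3 and 4 in V2, where 47.2% and 28.8% of all protein-coding genes did. By this rule the neuron counts were near the share of all genes. The rule left out GAD1 among the neuron genes and KLF5 among the squamous genes. Both had records in each list within 1 kb of a RefSeq start. The rule also counted the neuron genes RBFOX3 in both lists and MAP2 in sg3, whose RefSeq starts had no record within 1 kb. Protocadherin paralogs are similar in sequence, and how multiply aligned reads were treated is not stated in the labels, so its part in the low counts was not tested.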

How the data were processed

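The submitters' processing notes name MACS2 2.2.9.1, Bowtie2 2.5.1, SAMtools 1.18, FastQC 0.12.1 and Trim Galore 0.6.10, with the build hg38. Neither the labels nor the lists state the command line, the control library, pooling or read depth. The authors deposited 1 narrowPeak list per arm. Its fold enrichment (a ratio to background at the summit), -log10 p-value, -log10 q-value, integer score and summit offset are the authors' deposited values. The p-value and score columns were not used further.

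No records within a list overlapped. Starts came from the RefSeq promoter table with strand, or from the lower coordinate for members without an entry. A gene was marked when any part of a record lay within 1 kb of a start, or of either end for the neighbour and related lists. Overlap of 1 base made records shared. Blocks used record midpoints. Intervals are exact Clopper-Pearson at 95%. Python 3.11.15, NumPy 2.4.6 and SciPy 1.17.1 were used, and the overlap search was tested on simulated data.

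The members and lists were chosen with earlier results of these data known. Every member and window neighbour was accounted for. Members with a record at a start, neighbours in 1 list alone or both, and up to 4 genes per related list (1 list alone first, then by -log10 q) were named, while CTCF and SMC3 were named after their values were seen. The nearest 10 neighbours per side, the CpG classes, the search interval for CGCT, the gap ranks and the olfactory receptor family were also chosen after the data were seen.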

Additional observations from a re-analysis of the deposited data

How the results depend on the processing

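Of 184 values under alternatives, 160 stayed within 1.5 times the reported count and 24 did not. Whether a difference between the lists changed direction was not counted. The count of members marked at the start was 1 in sg3 and 0 in V2 under every alternative except taking either end of the gene, which gave 22 members in sg3, all 22 of them in sg3 alone, because all PCDHG genes share the 3′ end beside a record. The window count fell to 10 in sg3 at a -log10 q of at least 10, where V2 had 8. In lists of equal length it was 11 in sg3 and 11 in V2, so the excess of sg3 was gone. It was 10 in sg3 and 7 in V2 when records within 1 kb were merged, which left 5 shared V2 records. PCDHA held 2 records in sg3 at a -log10 q of at least 10, where V2 had 4, and 2 in lists of equal length, where V2 had 5. When records were merged it held 2 in sg3 and 2 in V2. The gap after PCDHA held 0 in sg3 at a -log10 q of at least 10 and in lists of equal length. After PCDHG, sg3 had 4 records at a -log10 q of at least 10, at a fold enrichment of at least 4 and in lists of equal length, and 3 when merged, while V2 had 0 at a -log10 q of at least 5 or 10 or a fold enrichment of at least 4. A window of 2.5 kb gave V2 records at 2 neighbour genes, which left 0 in sg3 alone, and at 5 related cadherin genes. A fold enrichment of at least 4 left 5 regulators in V2. No paired analysis was possible because each arm has 1 list. With 1 list per arm and unknown depth, an absent record shows that no peak was called, not that the mark is absent.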
